A study of Mus musculus with 3 samples.

Results

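Sugar digestion and transport in the mouse intestine was followed through 9 genes of the 51912 in the features list: the brush border enzymes sucrase-isomaltase (Sis), maltase-glucoamylase (Mgam), trehalase (Treh) and lactase (Lct), the transporters Slc5a1, Slc2a2, Slc2a5 and Slc5a4b, and ketohexokinase (Khk). They were matched by gene symbol, and all 9 were found and passed the filter on low counts. Single-cell RNA sequencing (scRNA-seq) of sorted epithelial cells came from 2 libraries of VillinCreERT2, Arid3a fl/fl mice (Arid3a cKO) and 1 library of VillinCreERT2 mice with no floxed allele (WT). Cre was driven by the Villin promoter, so deletion was aimed at the epithelium, and both genotypes carried the recombinase and received tamoxifen at 8 to 10 weeks of age, with harvest 1 month after the first dose. Cells were dissociated from isolated crypts and sorted as live, Epcam-positive, CD45-negative and CD31-negative. The labels do not say how many animals went into a library.

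Dietary starch, sucrose, trehalose and milk sugar are split into single sugars at the tips of the microvilli by enzymes anchored in the brush border membrane. Glucose and galactose then enter the enterocyte with sodium through SGLT1, the product of Slc5a1, fructose enters through GLUT5, the product of Slc2a5, and GLUT2, the product of Slc2a2, carries sugars across the basolateral membrane into the blood. Ketohexokinase traps fructose inside the cell by phosphorylation. Slc5a4b encodes SGLT3b, a relative of SGLT1 that has been discussed as a glucose sensor more than as a transporter. These genes serve as markers of the enterocyte, the absorptive cell that matures as it leaves the crypt.

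The study set Arid3a, an A+T-rich interaction domain factor, against other intestinal transcription factors, so the sequences before the start sites are shown first. All 9 genes matched a promoter window in RefSeq (GRCm38.p6; 250 bases before the start and 50 after it). Both strands were searched for CAAAGTCCA and CAAAGTTCA (HNF4), CATAAA (bound by CDX factors), AGATAA (bound by GATA factors) and AATTAA (an A+T-rich run). The 4 genes below are shown because these letters lie within the bases before their start. Each sequence covers the 250 bases before the start, 5′ to 3′ on the strand of the gene, and the capitals mark the letters found.
Sis (chr3:72967864-72968113, minus strand): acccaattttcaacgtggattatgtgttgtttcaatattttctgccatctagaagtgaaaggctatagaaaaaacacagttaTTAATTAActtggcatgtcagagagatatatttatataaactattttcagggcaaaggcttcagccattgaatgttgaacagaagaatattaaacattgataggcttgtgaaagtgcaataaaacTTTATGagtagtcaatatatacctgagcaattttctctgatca
Lct (chr1:128328319-128328568, minus strand): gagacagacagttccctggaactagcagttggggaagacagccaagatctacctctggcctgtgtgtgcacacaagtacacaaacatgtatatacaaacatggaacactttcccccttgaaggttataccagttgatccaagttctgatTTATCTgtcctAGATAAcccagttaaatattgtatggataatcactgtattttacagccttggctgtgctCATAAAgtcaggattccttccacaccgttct
Mgam (chr6:40628581-40628830, plus strand): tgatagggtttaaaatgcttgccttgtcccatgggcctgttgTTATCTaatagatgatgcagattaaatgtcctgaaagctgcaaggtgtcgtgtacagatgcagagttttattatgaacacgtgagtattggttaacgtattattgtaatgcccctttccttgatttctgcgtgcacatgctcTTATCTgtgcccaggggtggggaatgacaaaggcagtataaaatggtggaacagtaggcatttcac
Treh (chr9:44672983-44673232, plus strand): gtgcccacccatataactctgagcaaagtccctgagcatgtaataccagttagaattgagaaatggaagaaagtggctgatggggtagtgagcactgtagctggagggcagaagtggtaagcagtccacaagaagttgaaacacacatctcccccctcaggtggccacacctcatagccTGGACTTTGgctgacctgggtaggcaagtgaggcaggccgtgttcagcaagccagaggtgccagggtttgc

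In the Sis promoter the A+T-rich letters stood on both strands, in 2 overlapping matches that begin 168 and 166 bases before the start, and CDX letters lie 43 bases before it. Sis was the only member with AATTAA, which 11.3% of all 32851 promoter windows held. In Lct a pair of GATA sites lay 101 and 90 bases before the start, and Mgam had a pair 208 and 66 bases before its own, against 11.2% of windows with any GATA letters. Treh alone held CAAAGTCCA, which 0.475% of windows held, and no member held CAAAGTTCA (0.39%). CDX letters stood in Lct, Sis and Slc5a4b (11.8% of windows). The windows of Slc2a2, Slc2a5, Slc5a1 and Khk held none of these letters. A match describes letters and is not a measured binding site.

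The sequence also differed in base composition. The 250 bases before Sis were 31.6% G and C, those before Lct and Mgam 42.8% and 42.4%, and those before Khk and Slc2a5 67.2% and 66.4%. The RefSeq starts of Khk and Slc2a5 lie inside the GENCODE spans given next, so part of their 250 bases does too. All 9 genes are protein-coding in GENCODE M21 (GRCm38). Sis lies at chr3:72888557-72967863 and Slc2a2 at chr3:28697903-28731359. Lct lies at chr1:128284756-128328318, Mgam at chr6:40628831-40769123 and Treh at chr9:44673233-44686305. Slc5a1 lies at chr5:33104219-33162870 and Khk at chr5:30921431-30931248. Slc2a5 lies at chr4:150119283-150144169 and Slc5a4b at chr10:76057494-76110961.

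After the limits on genes and mitochondrial UMIs, 5594 of 25554 barcodes remained, between 1550 and 2134 per library, with median depths of 29895 to 35764 UMIs per cell. A unique molecular identifier (UMI) counts 1 captured transcript. The deleted gene was low throughout: Arid3a had 0.592 and 0.894 counts per 1000000 UMIs (CPM) over all cells of Arid3a cKO 1 and 2 and 2.57 in WT, from 42, 52 and 161 UMIs. These 3′ tags need not lie in the deleted part, so they check the labels only in part. Cells were grouped without the sugar genes into classes that were named from markers: intestinal stem cell (ISC)-like, transit amplifying (TA)-like, goblet-, Paneth-, enteroendocrine- and tuft-like cells and 4 enterocyte-like clusters, which are called by their leading genes Slc5a12, Ms4a18, Akp3 and Ifit3. A cluster of 744 cells led by Ccl20, Edn2, Rbp7 and Krt19 met no class rule and is called the Rbp7 cluster. It held 15.8% of the cells of Arid3a cKO 1, 12.7% of Arid3a cKO 2 and 10.9% of WT. A further low-UMI cluster of 138 cells (1.5%, 3.16% and 2.98%) and a mixed one of 50 cells (0.656%, 0.645% and 1.36%) also stayed unnamed. In enterocyte-like cells the leukocyte markers summed to at most 0.715 CPM, and 5 of 6 endothelial and stromal markers were at 0 in each library.

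The sugar genes were expressed mainly in enterocyte-like cells, and none of the 9 was called different between the genotypes there. Values are given in CPM for Arid3a cKO 1, Arid3a cKO 2 and WT in that order, from 26588785, 20937149 and 21426381 UMIs in 831, 606 and 704 cells. Exact Poisson 95% intervals cover counting error only.

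Among the enzymes, Sis, which splits sucrose and the branched ends of starch, had 3272, 2783 and 3381 CPM. WT was highest and Arid3a cKO 2 lowest, and the WT value was nearer to Arid3a cKO 1 than the cKO libraries were to each other. Mgam, the other starch-trimming enzyme, had 859, 880 and 861 CPM. WT lay between the cKO libraries. Treh, which splits trehalose, the sugar of fungi and insects, had 249, 264 and 248 CPM. Arid3a cKO 1 and WT were nearly equal, and Arid3a cKO 2 lay above both. Lct, which splits milk sugar and declines after weaning, had 509, 578 and 596 CPM. WT was highest, with Arid3a cKO 2 near it.

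Among the transporters, Slc5a1 had 1231, 1194 and 1295 CPM, and WT was highest by a small margin. Slc2a2 had 433, 409 and 386 CPM, the only transporter with both cKO libraries above WT. Slc2a5 had 112, 90.0 and 105 CPM, with WT between the cKO libraries. Slc5a4b had 64.5, 41.3 and 66.5 CPM. Here Arid3a cKO 1 and WT were alike and Arid3a cKO 2 stood apart. Khk, the first enzyme of fructose breakdown, had 1122, 1031 and 1160 CPM, with WT highest.

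**Figure D1:**
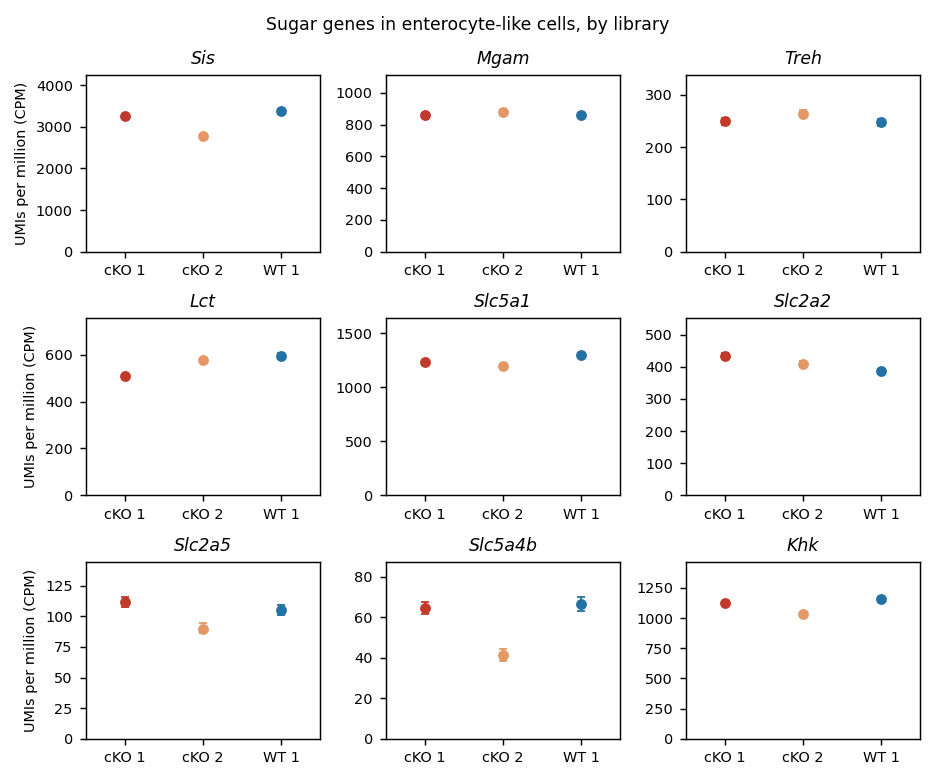
CPM of each sugar gene in enterocyte-like cells of the 3 libraries, with exact Poisson 95% intervals (often smaller than the point), each axis starting at 0. No gene sets both cKO libraries far from WT, and Slc5a4b is low in Arid3a cKO 2 alone (41.3 CPM against 64.5 and 66.5).

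None of the 9 genes was called in enterocyte-like cells by edgeR's quasi-likelihood test (adjusted p of 0.345 or more). The test called 297 of 12036 genes tested, or 2.47%. Its unadjusted p was under 0.05 for 1 of the 9 and for 1650 of the 12036. DESeq2 also called 0 of the 9, and 83 genes in all. Its unadjusted p was under 0.05 for 0 of the 9 and for 436 of all genes. The fitted log2 fold change of cKO over WT was -0.15 ± 0.21 (SE) for Sis, -0.09 ± 0.16 for Slc5a1 and 0.13 ± 0.12 for Slc2a2. It was -0.12 ± 0.14 for Lct, -0.10 ± 0.15 for Khk and 0.02 ± 0.15 for Mgam. The largest was that of Slc5a4b, at -0.32 ± 0.15 (edgeR adjusted p = 0.345). With 1 WT library the spread came from the cKO libraries alone, on 1 residual degree of freedom moderated across genes, and WT was assumed to vary like them.

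The log2 ratios were also read without a test. Genes for which each cKO library had a log2 ratio of CPM + 5 to WT of 0.5 or more, or each had -0.5 or less, were counted as separated. This held for 116 of 12036 genes (0.964%) and for 0 of the 9 sugar genes. The ratio of Slc5a4b was -0.04 in Arid3a cKO 1 and -0.63 in Arid3a cKO 2. Without Arid3a cKO 1, it was the 1 sugar gene past the threshold. The median over the sugar genes was -0.04 in Arid3a cKO 1 and -0.12 in Arid3a cKO 2, and over all genes 0.01 and -0.02.

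**Figure D2:**
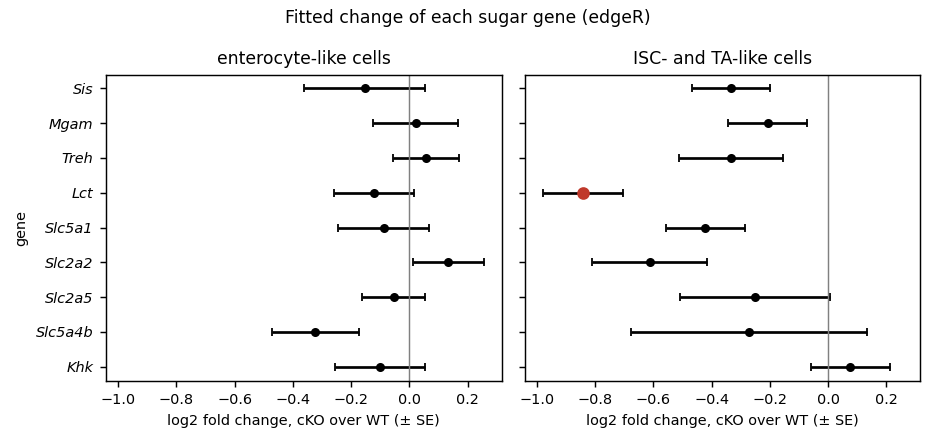
Fitted log2 fold change of each sugar gene, cKO over WT, with its standard error, in enterocyte-like cells (left) and in ISC- and TA-like cells (right); red marks an adjusted p under 0.05. In enterocytes the points run from -0.32 (Slc5a4b) to 0.13 (Slc2a2), and in ISC- and TA-like cells Lct is lowest, at -0.84.

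A marker of the duodenum moved in these cells. S100g, a calcium-binding protein of the proximal gut, had 2286, 3209 and 1245 CPM (edgeR adjusted p = 0.00680). It made up most of the sum of the 6 proximal markers, which was 2502, 3475 and 1398 CPM. The 5 ileal markers together had 537, 526 and 613 CPM. The Akp3 cluster, in which S100g was a leading gene, made up 7.31%, 9.29% and 5.97% of cells. The paper uses S100g as an enterocyte marker and reports it higher in Arid3a cKO cells placed earlier in its own cell order. Whether the S100g difference came from the gut region sampled or from the genotype was not tested. The part of either in the sugar genes' values was not tested, but within each cluster the values can be set side by side. In the Slc5a12 cluster Sis had 3634, 3030 and 3708 CPM and in the Akp3 cluster 2935, 2444 and 3087 CPM, so that Arid3a cKO 2 was lowest in both. Slc2a2 had 484, 445 and 433 CPM in the Slc5a12 cluster and 526, 433 and 432 CPM in the Akp3 cluster. In the Ms4a18 cluster Slc2a2 had 324, 334 and 291 CPM, with both cKO libraries above WT. Sis had 3026, 2683 and 3017 CPM there, with Arid3a cKO 2 lowest.

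The enterocyte-like clusters differed in level more than the libraries did for several of these genes. The sugar genes were left out of the clustering, but genes that vary with them were not, so these differences are described with no test. Slc5a4b had 126, 75.4 and 109 CPM in the Slc5a12 cluster, whose other leading gene Cubn encodes an uptake receptor, and 29.9, 17.5 and 39.4 CPM in the Akp3 cluster. In the Ms4a18 cluster it had 11.0, 9.28 and 19.0 CPM. The Slc5a12 cluster was thus 11.5, 8.12 and 5.72 times as high as the Ms4a18 cluster in the 3 libraries, and their values did not overlap. UMIs of Slc5a4b were seen in 88.1%, 78.4% and 82.2% of cells of the former and 23.8%, 20.1% and 30.7% of the latter, at median depths of 30106 to 34411 and 31602 to 38393 UMIs.

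Lct followed the same order, with 819, 829 and 837 CPM in the Slc5a12 cluster, 428, 515 and 497 in the Akp3 cluster and 183, 247 and 274 in the Ms4a18 cluster. Treh was also low in the Ms4a18 cluster, at 80.7, 92.8 and 104 CPM, but the Akp3 cluster (326, 296 and 296 CPM) came close to the Slc5a12 cluster (359, 354 and 326 CPM). Mgam was highest in the Akp3 cluster among these 3 clusters, at 1131, 1037 and 1062 CPM against 919, 912 and 924 CPM in the Slc5a12 cluster. Differences were smaller for Sis and Khk than for Slc5a4b, Lct, Treh and Mgam. The Slc5a12 cluster had 1.20, 1.13 and 1.23 times the Sis level of the Ms4a18 cluster and 1.11, 1.12 and 1.10 times its Khk level, and for Slc2a5 it had 1.41, 1.24 and 1.22 times. The small interferon-marked Ifit3 cluster, with 15 to 25 cells per library, had levels like those of the Slc5a12 cluster for Sis (3501, 2772 and 3679 CPM) and Lct (832, 677 and 790 CPM).

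**Figure D3:**
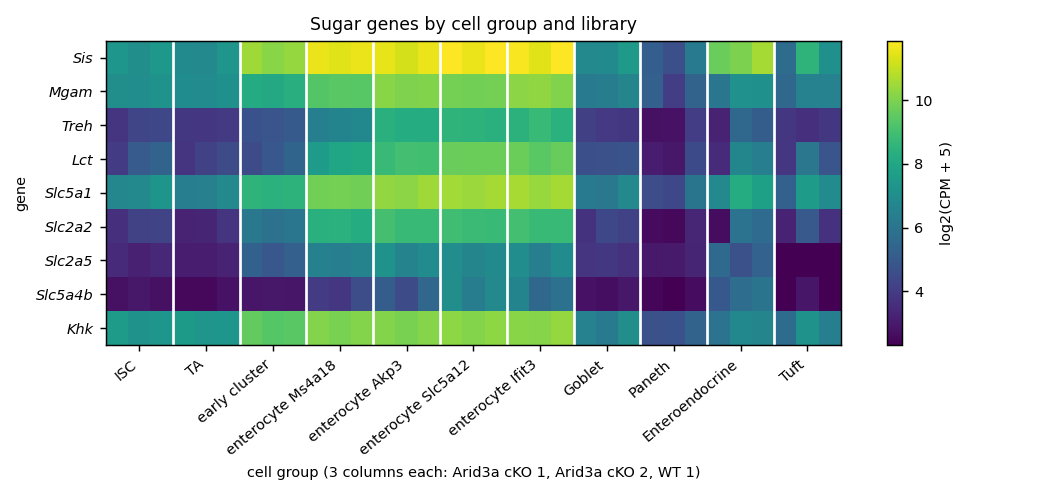
Level of each sugar gene, as log2(CPM + 5), by cell group, with 3 columns per group for Arid3a cKO 1, Arid3a cKO 2 and WT; early cluster is the Rbp7 cluster. Sis and Khk are bright in the Rbp7 cluster and change little among enterocyte clusters. Slc5a4b is brightest in the Slc5a12 cluster, and Sis stands out in enteroendocrine-like cells.

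The genes differed in how near the Rbp7 cluster came to their level in enterocyte-like cells. Whether this cluster precedes the enterocyte-like cells was not tested. In the Rbp7 cluster Khk had 750, 638 and 673 CPM, which is 66.9%, 61.9% and 58.0% of its level in enterocyte-like cells of the same library. Sis stood at 44.3%, 40.8% and 38.2%, with 1449, 1136 and 1291 CPM. Mgam (33.7%, 29.9% and 35.7%), Slc2a5 (30.8%, 27.7% and 31.1%) and Slc5a1 (29.7%, 28.2% and 27.5%) followed. Slc2a2 stood at 15.3%, 13.4% and 16.2% and Treh at 8.56%, 8.86% and 11.1%. Lct (3.48%, 4.30% and 6.18%) and Slc5a4b (3.92%, 6.33% and 3.73%) were near their level in ISC-like cells. The order Khk, Sis, Mgam and Slc2a2 was the same in each library, whereas the ranges of Mgam, Slc2a5 and Slc5a1 adjoin, as do those of Lct and Slc5a4b.

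Khk and Mgam were also measured in the crypt classes, and stood highest there relative to their own level in enterocytes. Khk had 185, 144 and 154 CPM in ISC-like cells and 177, 150.5 and 158 in TA-like cells. Mgam had 125, 123 and 146 CPM in ISC-like and 119.9, 117 and 135 in TA-like cells. Its ISC-like level was 14.5%, 14.0% and 17.0% of that in enterocytes, above Slc5a1 (8.28%, 9.07% and 11.3%). To compare shares of cells across depths, each cell was thinned to 10000 UMIs, which left out shallower cells (13 of 440 ISC-like cells in Arid3a cKO 1). Khk was then seen in 71.0%, 64.1% and 66.1% of ISC-like cells and in 32.2%, 28.7% and 44.4% of goblet-like cells, which should lack an absorptive programme. Without thinning these shares were 90.9%, 89.4% and 91.2% against 48.4%, 44.8% and 59.4%. As a share of its own level in enterocytes, Khk stood at 16.4%, 14.0% and 13.3% in ISC-like cells and Sis at 4.81%, 4.58% and 4.92%. Whether these UMIs come from the ISC-like cells themselves was not tested.

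Cells were also ordered by diffusion pseudotime starting from ISC-like cells. Over ISC-, TA- and enterocyte-like cells alone the order failed, since TA-like cells made up 73.7% of the last of 5 equal bins. With the Rbp7 cluster added, after seeing this, the bins ran from 97.2% ISC-like cells through 72.1% TA-like cells and 70.2% Rbp7 cluster cells to 2 bins of enterocyte-like cells only. In the third bin Khk had reached 873, 752 and 821 CPM, against 1171, 1093 and 1204 in the last. Sis rose from 202, 132 and 195 CPM in the second bin to 1912, 1533 and 1757 in the third and 3465, 2784 and 3550 in the last. Lct had 42.3, 56.5 and 82.9 CPM in the third bin, 346, 422 and 473 in the fourth and 854, 873 and 891 in the last. Arid3a cKO 1 was lowest and WT highest for Lct in each of these bins, and the gap closed towards the last. Slc5a4b also rose late, from 35.5, 30.3 and 48.6 CPM in the fourth bin to 120, 63.8 and 109 in the last.

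**Figure D4:**
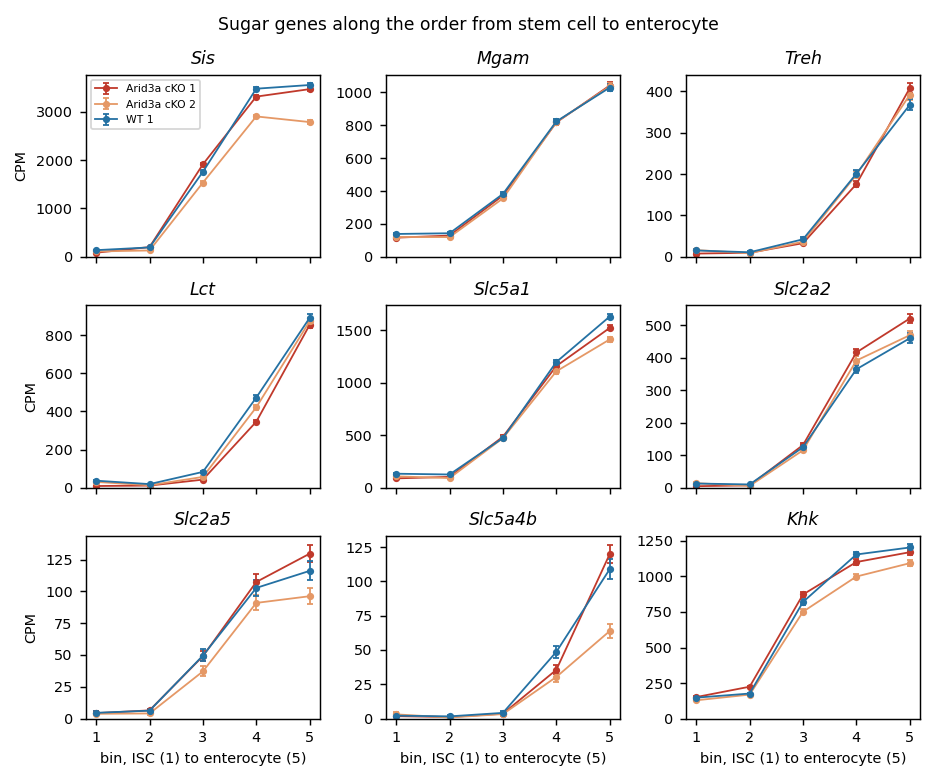
CPM of each sugar gene in 5 bins of equal cell number along the order from ISC-like to enterocyte-like cells with the Rbp7 cluster included, 1 line per library, with exact Poisson 95% intervals. Khk and Sis climb by the third bin, whereas Lct, Treh and Slc5a4b stay low there (Lct at 42.3 to 82.9 CPM) and climb in the last 2 bins.

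The mean bin of a gene, weighted by its UMIs, was later in both cKO libraries than in WT for 6 of the 9 sugar genes, and so it was for 65.5% of all 12421 genes with enough UMIs. For Lct it was 4.56, 4.48 and 4.36, for Slc2a2 4.27, 4.28 and 4.23, and for Sis 4.02, 4.06 and 4.05. The mean bin of Slc5a4b was 4.64, 4.47 and 4.51, later than that of Lct in Arid3a cKO 1 and WT only. With bins weighted by CPM, the genes later in both cKO libraries were 5 of the 9 and 36.6% of all genes.

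In the sum of ISC- and TA-like cells, 1 sugar gene was called. Lct had 10.1, 20.4 and 27.3 CPM, lowest in Arid3a cKO 1 and highest in WT, with the cKO libraries farther from each other than Arid3a cKO 2 was from WT. Its fitted log2 fold change was -0.84 ± 0.14 (SE; edgeR adjusted p = 3.224e-07), beside 212 of 13776 genes called (1.54%), 119 of them lower in cKO (0.864%). In this fit every gene took the spread common to genes of its level. With scaling by total UMIs alone the adjusted p of Lct in edgeR was 0.443, and in DESeq2 it was 0.999. With the top 5% of cells by doublet score removed, a step added after the data were seen, Lct had 5.67, 7.45 and 19.7 CPM (edgeR adjusted p = 4.739e-06).

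The values beside that call are those of a few cells and of other classes. The 5 ISC-like cells with most Lct UMIs held 39.2%, 47.7% and 43.2% of all Lct UMIs of the class. After thinning, Lct was seen in 7.73%, 9.26% and 14.9% of ISC-like cells and in 10.3%, 9.90% and 15.7% of goblet-like cells (14.8%, 16.7% and 32.6%, and 16.7%, 18.4% and 23.1%, unthinned; median depths of 27143 to 33169 and 23754 to 29464 UMIs). The thinned share in ISC-like cells was at or below that in goblet-like cells in each library, while the unthinned WT share was above it, so no expression of Lct is read from these shares. In Paneth-like cells too, WT had the most Lct (3.33, 2.75 and 17.2 CPM) and the most Sis (30.8, 20.1 and 71.4 CPM), and 17 of 19 enterocyte markers were highest there in WT. In ISC-like cells 5 of 19 enterocyte markers were highest in WT, with sums of 5368, 6566 and 5643 CPM, and in TA-like cells 11 of 19, with sums of 5233, 5480 and 5367 CPM. In goblet-like cells 12 of 19 were highest in WT. Other classes went the other way. In enteroendocrine-like cells 1 of 19 was highest in WT, and in tuft-like cells 0 of 19, with sums of 10347, 10643 and 6826 CPM. The part of such RNA in the Lct difference was not tested.

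Slc5a1 had 92.4, 96.4 and 127 CPM in ISC- and TA-like cells and a log2 fold change of -0.42 ± 0.14, and Slc2a2 had 6.08, 8.99 and 11.5 CPM and -0.61 ± 0.20, both with an edgeR adjusted p of 0.0949. Neither passed the threshold. Of the Slc2a2 UMIs of ISC-like cells, 46.0%, 54.4% and 46.1% lay in 5 cells (13.0%, 21.4% and 21.7% for Slc5a1). In edgeR 4 of the 9 and 1096 of the 13776 genes had an unadjusted p under 0.05, in DESeq2 2 and 280. The 9 genes share cells and libraries, so these counts are set side by side with no test. Sis had 136, 117 and 160 CPM and Mgam 123, 120 and 141 CPM, and Khk 181, 147 and 156 CPM. WT was highest for Sis and Mgam and lay between the cKO libraries for Khk.

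Over all kept cells, where the class mix enters, no sugar gene was called by edgeR (113 of 15986 genes, 0.707%) or by DESeq2. In edgeR 1 of the 9 and 1816 of all genes had an unadjusted p under 0.05, in DESeq2 0 and 713. Slc2a2 had the lowest p, with 178, 163 and 150 CPM (edgeR adjusted p = 0.416). Enterocyte-like cells made up 38.9%, 39.1% and 36.9% of the libraries.

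Enteroendocrine-like cells, the hormone cells of the epithelium, had UMIs of Sis, Slc5a4b and Slc2a5 as well. Sis had 817, 1014 and 1518 CPM there, from 45, 43 and 86 cells, and after thinning was seen in 80.0%, 72.4% and 93.5% of them, against 37.9%, 26.7% and 47.8% of goblet-like cells. Unthinned, the shares were 82.2%, 69.8% and 93.0% against 50%, 36.8% and 65.7%, at median depths of 15590 to 16953 UMIs in enteroendocrine-like cells. Slc5a4b had 26.2, 48.2 and 58.1 CPM, and Slc2a5 42.9, 21.0 and 35.2 CPM. Lct had 5.96, 100 and 79.1 CPM and Slc2a2 1.19, 56.8 and 46.0 CPM, but 5 cells held 100%, 92.6% and 86.3% of the Lct UMIs. The 5 highest cells also held 90.9%, 66.7% and 54.7% of the Slc5a4b UMIs (22, 39 and 86 UMIs in all), and 44.4%, 52.0% and 31.0% of those of Sis. Relative to enterocytes of the same library, Sis stood at 25%, 36.4% and 44.9% and Slc5a4b at 40.7%, 117% and 87.4%, against 1.17%, 17.3% and 13.3% for Lct. Whether these UMIs come from the enteroendocrine-like cells themselves was not tested.

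Finer clustering, at resolution 0.8, divided this class in 2, and Slc5a4b was found mainly in 1 of these. One sub-cluster was led by the hormone genes Cck, Gip and Gcg and the other by Afp, Reg4, Chga and Tph1, whose product starts serotonin synthesis. Slc5a4b had 84.4, 108 and 147 CPM in the Tph1 sub-cluster, from 17, 20 and 31 cells, and 0, 2.19 and 9.44 CPM in the Cck and Gip sub-cluster, from 29, 23 and 55 cells. It was seen in 41.2%, 55.0% and 51.6% of the former. In the latter it was seen in 0% (0 UMIs, upper Poisson limit 5.89 CPM), 4.35% and 3.64% of cells. The values did not overlap in any pairing of libraries. Slc2a5 had the opposite order, 47.9, 30.6 and 40.9 CPM in the Cck and Gip sub-cluster against 23.0, 8.52 and 24.7 CPM in the Tph1 sub-cluster, and its counting intervals overlapped. Sis was present in both, with 794, 791 and 1399 CPM and 737, 1304 and 1734 CPM. The enterocyte marker Apoa4 had 61.4, 2213 and 1307 CPM in the Tph1 sub-cluster and 33.5, 295 and 403 CPM in the Cck and Gip sub-cluster. Fabp1 had 503, 7236 and 1071 CPM in the former and 211, 265 and 1390 CPM in the latter. The part of enterocyte RNA in the Slc5a4b values was not tested. The sugar genes took no part in this clustering, and the cells of 1 sub-cluster share their library, so these are levels with no test.

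**Figure D5:**
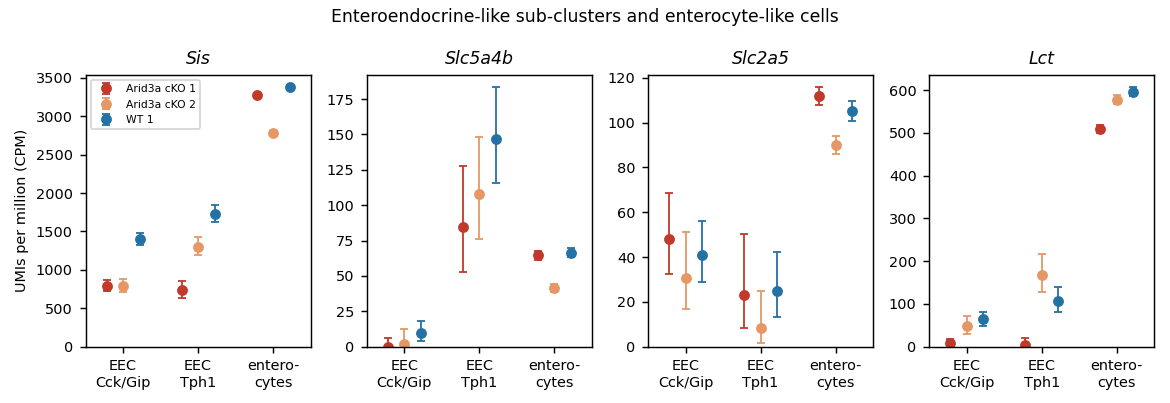
CPM of Sis, Slc5a4b, Slc2a5 and Lct in 2 enteroendocrine-like (EEC) sub-clusters and in enterocyte-like cells, by library, with exact Poisson 95% intervals. Slc5a4b is near 0 in the Cck and Gip sub-cluster and at 84.4 to 147 CPM in the Tph1 sub-cluster, while Sis is high in both.

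Between genotypes, Sis was lower in both cKO libraries in enteroendocrine-like cells, with log2 ratios of CPM + 5 to WT of -0.89 and -0.58. It was the 1 sugar gene separated in this class, where 1.94% of 9032 genes were separated and lower in cKO and 7.77% were separated in either direction. In the Cck and Gip sub-cluster the ratios of Sis were -0.81 and -0.82, in the Tph1 sub-cluster -1.23 and -0.41. The classes were small, and hormone genes varied between the libraries in the Cck and Gip sub-cluster without a common order: Cck had 35931, 37345 and 65719 CPM, Ghrl 68292, 24883 and 57523 CPM and Sst 27309, 30324 and 8448 CPM. Over the whole class the 19 enterocyte markers summed to 3037, 14352 and 8324 CPM, and 1 of them was highest in WT. Their part in the difference of Sis was not tested. The targeted gene itself was best seen in this class, with Arid3a at 4.77, 6.18 and 21.6 CPM (4, 5 and 32 UMIs).

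Tuft-like cells held 0 UMIs of Slc2a5 in each library, of 426111, 410045 and 516103 UMIs in all, which leaves upper Poisson limits of 7.15 to 8.9963 CPM. Sis reached 46.9, 361 and 134 CPM there, from 37, 20 and 41 cells. In Paneth-like cells Khk had 20.8, 21.6 and 35.8 CPM.

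Across 7 classes and 3 libraries, 21 values that share libraries and depth, some members varied almost in parallel. Slc2a2 and Lct had a Pearson correlation of log2(CPM + 5) of 0.990, and Mgam and Khk 0.974, whereas Slc5a4b and Khk had 0.615. Among 9118 genes outside the set, Khk was most like Tkfc (0.988), which encodes triokinase, a later enzyme of fructose breakdown, then Maoa (0.984) and Cmbl (0.981). Slc2a5 was most like Slc2a9 (0.970), a urate transporter of the GLUT family, followed by Adap2 (0.950) and Gm37113 (0.945). Treh was most like Slc5a11 (0.988), an inositol transporter, then Slc7a15 and Bst1 (0.985 and 0.984). Mgam was most like Naprt (0.987), Ckb and Acsl5 (both 0.975). Slc5a1 was most like Acsl5 (0.984), Mogat2 (0.980) and Cyp2d26 (0.978), which take part in lipid handling or drug metabolism. Sis was most like H2-Q2 (0.986), Gk and Phlpp2 (0.981 and 0.979). Slc5a4b was most like Ceacam20 (0.978), Sulf2 (0.977) and the amino acid transporter Slc6a19 (0.969). Lct was close to 2010106E10Rik (0.986) and Ace (0.982), and Slc2a2 to 2010106E10Rik (0.988) and Nat8f5 (0.980).

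The rest of sugar handling was described by lists. Of all genes tested in enterocyte-like cells, 118 of 12036 (0.98%) were called higher in cKO, and lists of 5 or 6 genes are too short to set a share against this. In fructose breakdown beyond Khk, 1 of 5 genes tested rose. This was Sord, sorbitol dehydrogenase, which makes fructose from sorbitol, with 136, 127 and 93.9 CPM (edgeR adjusted p = 0.00801). Both cKO libraries were above WT. Tkfc, triokinase, had 453, 441 and 464 CPM and was not called. In gluconeogenesis 1 of 6 genes rose: Pck1, its rate-limiting carboxykinase, had 121, 155 and 97.4 CPM (edgeR adjusted p = 0.0431). Fbp2 had 672, 667 and 621 CPM and G6pc 64.5, 56.5 and 55.9 CPM, neither called.

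No gene was called among 16 of glycolysis, 8 other sugar transporters, 4 of the sodium gradient, 5 of the galactose pathway, 8 of glycogen and acid glycosidases, 15 regulators, 2 of sweet taste and incretins or 10 other brush border hydrolases, and none of these genes was separated. Slc9a3, the sodium-hydrogen exchanger of the brush border, had 90.8, 102 and 120 CPM (edgeR adjusted p = 0.166). Slc5a11 had 102, 99.2 and 118 CPM (edgeR adjusted p = 0.308). Atp1b1, the beta subunit of the pump that keeps up the sodium gradient, had 1824, 1771 and 1881 CPM. Of the brush border hydrolases Alpi, intestinal alkaline phosphatase, had 852, 1034 and 796 CPM and the aminopeptidase Anpep 1234, 1147 and 1413 CPM.

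Among regulators, Hnf4a, picked after its values were seen since its letters were searched above, had 93.3, 94.7 and 117 CPM (edgeR adjusted p = 0.114), with WT highest. Of the most highly expressed regulators, Creb3l3 had 371, 389 and 348 CPM, Hnf4g 193, 205 and 188 CPM, and Txnip, which restrains glucose uptake, 213, 177 and 214 CPM. Of glycolysis, Ldha, lactate dehydrogenase, had 1729, 1752 and 1616 CPM and Gapdh 2315, 2540 and 2319 CPM. The list medians of the log2 ratio ran from -0.09 (sodium gradient) to 0.14 (sweet taste and incretins, 2 genes), beside -0.10 for the 9 sugar genes and -0.003 for all genes tested.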

How the data were processed

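The 9 genes and all gene lists were chosen with earlier results of these data known. Reads were aligned and counted by the authors in Cell Ranger 5.0, and each deposited matrix gives unnormalized UMI counts for 1 library. The genome build of that step is not given in the sources used here. Of 51912 identifiers, 51719 (99.6%) matched GENCODE M21. The values printed here were computed from these counts.

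Cells with at least 1000 genes and at most 15% mitochondrial UMIs were kept, as in the study. Over the mitochondrial limit were 66.4% to 79.2% of barcodes. Libraries held 105912207, 94614297 and 129243053 UMIs (Arid3a cKO 1, Arid3a cKO 2 and WT) and shared 11 to 18 barcodes pairwise. Doublets were kept, and Scrublet (scanpy 1.11.5) marked 110 cells. Seurat 5.3.0 (R 4.3.3) integrated the libraries with 3000 features, 30 components and resolution 0.3, with 105 sugar-related genes left out. Clusters were named by markers among their top 50 genes (at least 3) or, failing that, by markers at 1.5-fold, and this scoring was set after the clusters were seen. Tuft-like cells were shallow (0.294 of the library median UMIs), with 7 tuft markers among their top 10 genes. Cells are not replicates, so UMIs were summed per library and class. Genes with at least 30 UMIs over the libraries were tested in edgeR 4.0.16 (glmQLFit, TMM), with Benjamini-Hochberg adjustment over all genes tested at 0.05, and DESeq2 1.42.0 as an alternative. Log2 ratios use CPM + 5, which understates changes of low genes. On simulated libraries with the enterocyte means (11895 genes), edgeR recovered 95.0% of genes changed 4-fold and 73.0% of those changed 2-fold. Every simulated gene had the same spread, in WT as in cKO, so recovery in the data may be lower. Smaller changes were not simulated. Promoter letters were read from RefSeq. Genes named were the 9, list genes that were called, up to 5 of the most highly expressed in each list, and the 3 genes most correlated with each sugar gene. Some of these genes, and 1 of the promoter motifs listed for the search, are not reported here. Others named were picked after their values were seen. Nothing says that libraries came from separate animals, so p-values measure only the spread between libraries.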

Additional observations from a re-analysis of the deposited data

Results flagged for a closer look

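The log2 ratios of Slc2a2 and Treh had opposite signs in 2 cell classes, in both Arid3a cKO libraries. The log2 ratio of CPM + 5 to WT of Slc2a2 was 0.17 and 0.08 (Arid3a cKO 1 and 2) in enterocyte-like cells and -0.58 and -0.24 in ISC- and TA-like cells. That of Treh was 0.01 and 0.09 in enterocyte-like cells and -0.38 and -0.10 in ISC- and TA-like cells. In ISC-like cells 5 cells held 46.0%, 54.4% and 46.1% of the Slc2a2 UMIs and 25.8%, 39.0% and 36.0% of the Treh UMIs (Arid3a cKO 1, Arid3a cKO 2 and WT). After thinning, Slc2a2 was seen in 3.75%, 5.56% and 8.12% of ISC-like cells, below its 6.90%, 7.92% and 9.57% in goblet-like cells. The difference between the classes was not tested, and neither gene was called by edgeR in either class. For Treh in enterocyte-like cells of Arid3a cKO 1 the ratio is near 0, with 249 CPM against 248 in WT, and its fitted sign turned with the Rbp7 cluster added.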

How the results depend on the processing

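None of the 9 sugar genes was called in enterocyte-like cells under any setting tried, whereas the number of all genes called was 297 by edgeR, 83 by DESeq2, 474 with no filter beyond 1 UMI and 545 without integration. The median log2 ratio of the sugar genes (-0.0953) was -0.0297 with limits of 25% mitochondrial UMIs and 500 genes, and -0.1166 to -0.0418 with 1 cKO library left out, and the sugar genes separated then numbered 0 to 1 (Slc5a4b, without Arid3a cKO 1). The small fold change of Mgam turned to -0.0399 with the wider limits and to -0.0357 with the Rbp7 cluster added, and that of Treh to -0.0118 with that cluster. In ISC- and TA-like cells, total UMIs alone gave 0 sugar genes and 44 genes in all and DESeq2 0 and 45, against 1 and 212. Lct then had -0.85 and -0.82. The median shift along the order, in percent of its length, was 0.1459 in the order that failed (-0.6007 to 0.3437 with 1 cKO library left out), 0.9664 with the Rbp7 cluster, 0.58 in 10 bins and 0.6544 weighted by CPM, and 0.1864 to 0.9659 with that cluster and 1 cKO library left out. Of the enteroendocrine-like sub-clusters, that led by Cck had 3 sugar genes separated (Khk, Sis and Treh) and that led by Afp 0. Treh had 2, 6 and 22 UMIs in the former. The share of all genes separated was 7.77% in the whole class and was not computed for a sub-cluster, so these counts are not read as a result. The cause of the changes with the settings was not tested. No paired analysis was possible because replicate number 1 alone occurs in both genotypes. With 1 WT library, and 17 to 86 cells per library in the small classes, low genes there are limited by depth.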
